A study of Mus musculus with 18 samples.

Results

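Weekly prednisone was compared between quadriceps muscle and white adipose tissue of the same mice. The comparison used 12 of the 18 RNA-seq libraries, the muscle and adipose libraries of 6 of the 9 mice: 3 mice given prednisone once a week and 3 given vehicle every day. All were obese wild-type male DBA/2J mice, an inbred strain, about 20 weeks old when injections began, by which time they had eaten a high-fat diet for 12 weeks. The diet went on during a further 12 weeks of treatment, so vehicle mice share the diet and the obesity. Prednisone was given at 1 mg/kg into the peritoneum, and mice were sampled 24 hours after their final injection. The remaining 3 mice received the same dose daily.

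Prednisone is a prodrug of a synthetic glucocorticoid. The active steroid binds the glucocorticoid receptor, which enters the nucleus and changes transcription, and the enzyme 11β-hydroxysteroid dehydrogenase 1 (Hsd11b1) forms the active steroid inside cells. In muscle the receptor is known for genes of protein breakdown and fuel choice, and in fat for genes of lipid storage, matrix and resident macrophages.

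Values were TPM, a measure of transcript abundance whose sum is the same in each library, added up here per gene and used as log2(TPM + 1). The muscle value minus the adipose value was taken in each mouse, and the mean of the vehicle mice was subtracted from the mean of the weekly mice. The result, called the tissue difference here, is below 0 where weekly prednisone moved a gene up in adipose tissue relative to muscle. It equals the weekly effect in muscle minus the weekly effect in adipose tissue. A gene was called where limma gave a Benjamini-Hochberg adjusted p under 0.05, and 11737 genes that reached 1 TPM in 3 or more libraries of each tissue were tested. Fold changes on this scale understate the change of genes at low TPM.

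Several features of the libraries bear on every value. Muscle and adipose libraries matched their labels: 30 skeletal muscle markers summed to 154302 to 178234 TPM in muscle of vehicle and weekly mice, and 24 adipocyte markers summed to 67091 to 75741 TPM in adipose tissue. In adipose tissue the muscle markers summed to 492, 330 and 374 TPM in vehicle mice 1, 2 and 3 and to 380, 2300 and 1697 TPM in weekly mice 1, 2 and 3. Adipose libraries of weekly mice held 13789 to 14076 genes at 1 TPM or more, against 13471 to 13530 in vehicle mice, and 3.79% to 4.23% of their TPM lay in retained-intron transcripts, against 3.34% to 3.42%. The muscle-minus-adipose value of the third mouse lay between those of the other mice for 45.5% of genes in the vehicle group and 44.5% in the weekly group, where equal shares would give 33.3%. TPM keeps no counts, so depth is unknown. The p-values measure the spread between mice, and in bulk tissue fewer cells of a type and less RNA per cell cannot be told apart.

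More genes were called for weekly prednisone in adipose tissue than in muscle. Against vehicle, 1052 of 14150 genes were called in adipose tissue (7.43%), 809 higher (5.72%) and 243 lower (1.72%), and 6 of 12246 in muscle (0.049%), each by limma within the tissue. With TMM scaling the adipose calls were 458 higher and 658 lower, so the more frequent direction turned, and counts of genes that rose in adipose tissue below are those without that scaling. The tissue difference itself was called for 326 of 11737 genes (2.78%). Of these, 319 (2.72%) were below 0 and 7 (0.0596%) above 0. All 319 had an adipose effect above 0, which was itself called for 186, while the muscle effect was below 0 in 286 and called in 1. Their median tissue difference was -0.72, made of -0.15 in muscle and 0.57 in adipose tissue. The median over all genes tested was -0.19, from -0.07 in muscle and 0.13 in adipose tissue, and 77.9% of genes lay below 0. The 3 weekly mice all lay below the 3 vehicle mice in 31.5% of genes and all above in 3.01%, together 34.5%. An unadjusted p under 0.05 was found for 28.1% of genes.

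**Figure D1:**
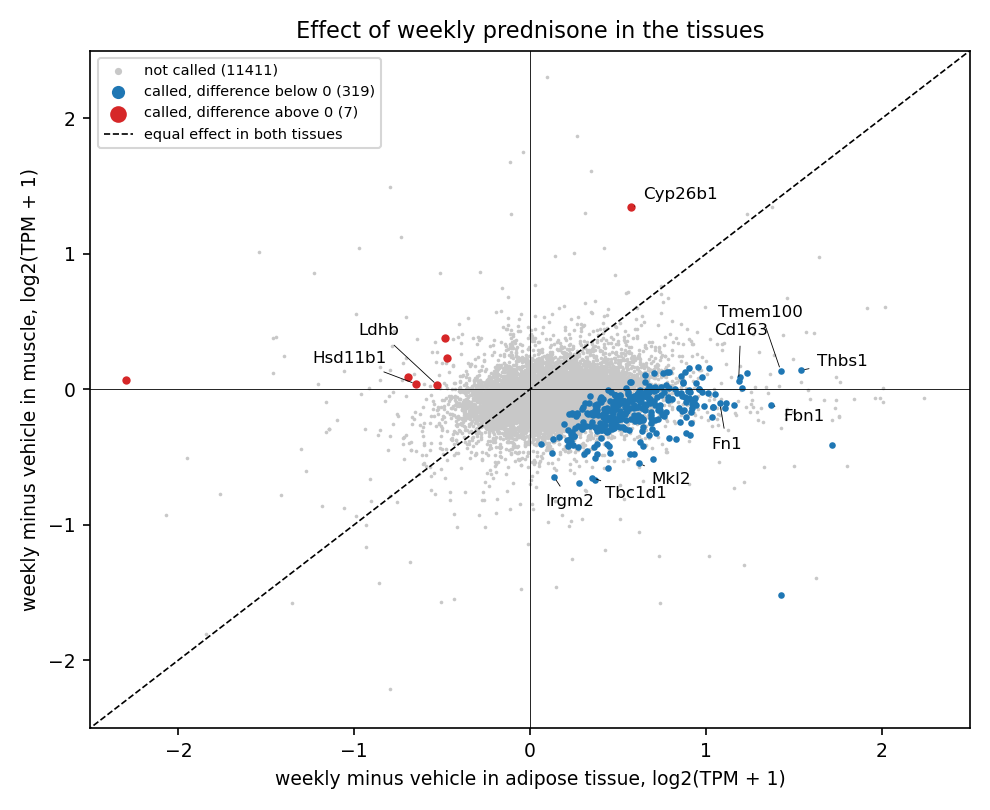
Weekly minus vehicle in adipose tissue (horizontal) and muscle (vertical), as differences of mean log2(TPM + 1) of 3 mice per group, for 11737 genes, of which 6 lie outside the axes. Genes called below 0 (blue, 319) lie right of the dashed line of equal effects with adipose effects above 0, and 7 genes called above 0 (red) lie left of it.

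The calls were not stable. With TMM scaling within each tissue, which moved the median tissue difference of all genes from -0.19 to 0.01, limma called 0 genes, with 2305 at an unadjusted p under 0.05. With only the vehicle and weekly mice in the fit it also called 0 (3128 at an unadjusted p under 0.05), since the daily mice then no longer contribute to the estimate of the spread. Without 1 mouse at a time, 55 genes were called without vehicle mouse 1, 0 without vehicle mouse 2, 1 without vehicle mouse 3, 0 without weekly mouse 1, 191 without weekly mouse 2 and 1 without weekly mouse 3. None of the 37 called genes named here was called in all 6 settings that leave out a mouse. All 37 kept their sign in each alternative run. Leaving out mice could not turn a sign, since the weekly and vehicle mice of the called genes did not overlap. Of the named genes that were not called, 15 changed sign in at least 1 alternative.

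The largest differences among the called genes named here were in genes of the extracellular matrix. Thbs1, which encodes the secreted matricellular protein thrombospondin 1 (chromosome 2, 118111876 to 118127133, GRCm38), stood at 33.9, 35.7 and 34.8 TPM in adipose tissue of vehicle mice and at 110, 98.7 and 100.3 TPM in weekly mice. In muscle it stood at 2.05, 2.45 and 2.20 TPM and at 2.41, 2.39 and 2.89 TPM. The groups were far apart in adipose tissue and overlapped in muscle, and the tissue difference was -1.40 ± 0.16 (SE, 3 mice per group; limma adjusted p = 0.0201). Fbn1, which encodes the microfibril protein fibrillin 1 (chromosome 2, 125300594 to 125507993), went from 30.5, 26 and 28.6 TPM to 88.8, 64.8 and 72.1 TPM in adipose tissue. In muscle it was 9.37, 15.1 and 11.7 TPM and 11.9, 10.2 and 10.6 TPM, so the weekly mice lay within the range of vehicle mice there. Its tissue difference was -1.48 ± 0.22 (limma adjusted p = 0.0302).

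Fn1, encoding fibronectin, was 144, 124 and 132 TPM in adipose tissue of vehicle mice and 331, 258 and 263 TPM in weekly mice, with a tissue difference of -1.18 ± 0.21 (limma adjusted p = 0.0355). Weekly mouse 1 had the highest adipose level of Fbn1, Thbs1 and Fn1. Its adipose library held the least muscle RNA of the weekly mice. It also had the largest shares of TPM in retained-intron transcripts (4.23%) and in transcripts over 3000 bases (14.4%) among them. The part of these features in the matrix results was not tested. Of 27 tested genes of the list of other matrix and matricellular proteins, Thbs1, Fbn1 and Fn1 were called below 0, against 2.72% of all genes. None was called above 0. The list's median was -0.48 (-0.06 in muscle, 0.42 in adipose tissue), against -0.19 over all genes, and it was -0.28 with TMM scaling, against 0.01. In adipose tissue alone 14 of the 27 rose, against 715 of all 11737 genes. The fourth member by p was Thbs2, at -0.63 (limma adjusted p = 0.0517), which was not called.

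Of 18 collagen genes, all 18 were below 0, against 77.9% of all genes, and 1 was called, against 2.72%. Col12a1, a collagen of fibril surfaces, went from 7.37, 8.17 and 7.17 TPM to 13.5, 11.0 and 13.3 TPM in adipose tissue and was 2.44, 3.33 and 2.55 against 3.31, 2.40 and 2.19 TPM in muscle (tissue difference -0.72 ± 0.13, limma adjusted p = 0.0355). Col3a1 was at -0.95, Col6a6 at -0.90 and Col14a1 at -1.05, each not called (limma adjusted p = 0.0536, 0.0537 and 0.0584). The median of the collagens was -0.48, and -0.27 with TMM scaling. Among 15 markers of fibro-adipogenic progenitors, the stromal cells that make much of this matrix, 1 was called, against 2.72% of all genes. It was Fn1, also counted in the matrix list above. The list's median was -0.52, and 10 of the 15 rose in adipose tissue, against 715 of all 11737 genes. Cd55, Osr1 and Pi16 stood at tissue differences of -0.68, -0.59 and -0.82 without being called. Fndc1, a fibronectin type III domain protein, was called at -1.27 ± 0.28, with adipose levels of 7.88, 9.10 and 11.0 TPM in vehicle and 30.5, 16.8 and 20.5 TPM in weekly mice.

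**Figure D2:**
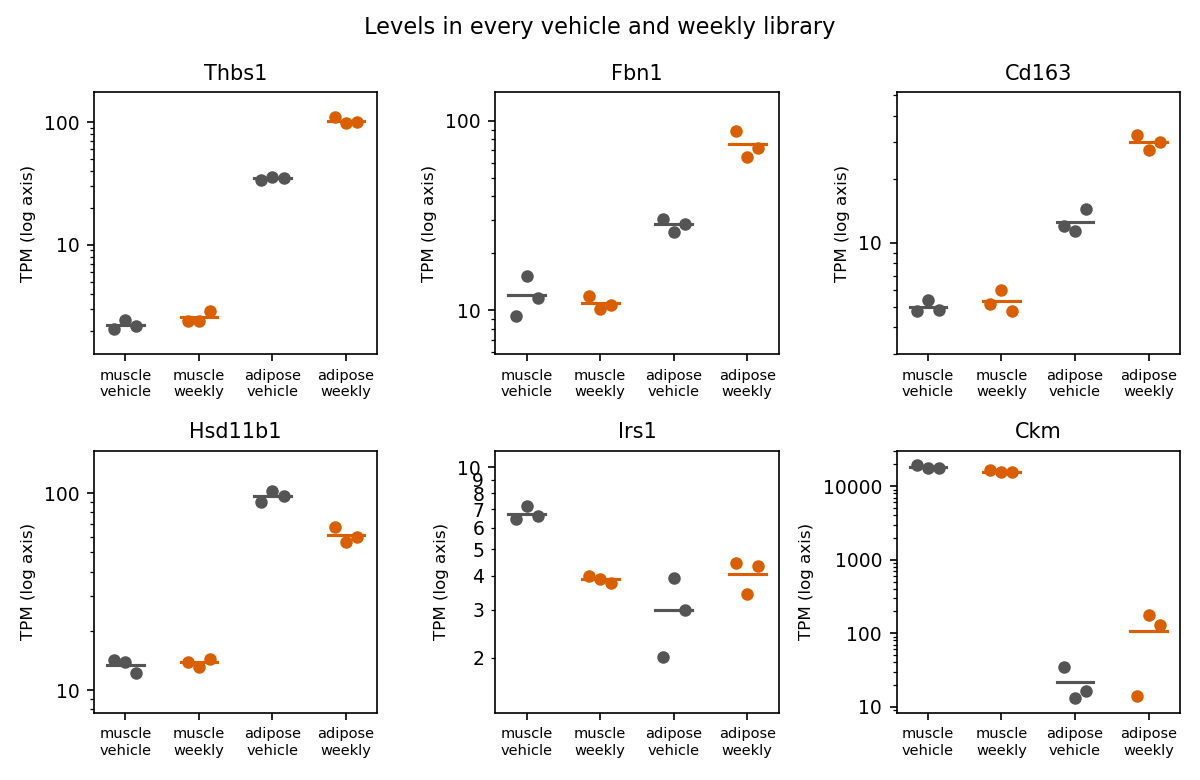
TPM (log axis) of 6 genes in each vehicle (grey) and weekly (orange) library of muscle and adipose tissue, with the arithmetic mean of 3 mice as a line. Thbs1, Fbn1 and Cd163 are higher in the weekly adipose libraries, Hsd11b1 is lower there, Irs1 is lower in weekly muscle, and Ckm is high in adipose libraries of weekly mice 2 and 3.

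Of 12 markers of resident macrophages, 3 were called below 0, against 2.72% of all genes: Cd163, Lyve1 and Gas6. Cd163, the haemoglobin scavenger receptor of resident macrophages (chromosome 6, 124304656 to 124330527), was 12.0, 11.4 and 14.5 TPM in adipose tissue of vehicle mice and 32.3, 27.5 and 29.9 TPM in weekly mice. In muscle it was 4.79, 5.38 and 4.83 TPM and 5.12, 5.98 and 4.76 TPM. Weekly adipose libraries were all above vehicle ones and the muscle libraries overlapped (tissue difference -1.12 ± 0.18, limma adjusted p = 0.0312). Lyve1, a hyaluronan receptor of perivascular macrophages and lymphatic endothelium, went from 8.90, 7.26 and 7.22 to 22, 16.4 and 20.9 TPM in adipose tissue (-1.11 ± 0.18, limma adjusted p = 0.0315). Gas6, a ligand of receptors for dying cells, was called at -0.41, and Mgl2 was at -0.98 without being called (limma adjusted p = 0.0532).

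The 12 resident macrophage markers had a median of -0.66, with 12 of 12 below 0 (77.9% of all genes) and 8 called higher in adipose tissue (715 of all 11737 genes). With TMM scaling the median was -0.47. Their summed level in adipose tissue ran from 511 to 650 TPM in vehicle mice and from 683 to 822 TPM in weekly mice. The 23 broad macrophage markers had a median of -0.39 (-0.19 in muscle, 0.24 in adipose tissue), which was -0.18 with TMM scaling. The summed adipose level of the full list of 24 overlapped between the groups. It ran from 4402 to 5682 TPM in vehicle mice and from 5035 to 5974 TPM in weekly mice. Of the 23, 1 was called, against 2.72% of all genes: Itgam, the integrin CD11b. It stood at 12.1, 10.7 and 12.3 TPM in vehicle adipose tissue and at 24.8, 17.8 and 19.8 TPM in weekly adipose tissue, and between 0.759 and 1.35 TPM in muscle of both groups (-0.94 ± 0.17, limma adjusted p = 0.0355). Ptprc, Cybb and Lyz2 were at -0.83, -0.72 and -0.55 and were not called. Slc11a1, a metal transporter of phagosomes, was called at -1.21 ± 0.22: it was 23.1, 22.1 and 32.7 TPM in vehicle adipose tissue and 47.3, 34.2 and 45.9 TPM in weekly adipose tissue.

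Endothelial genes gave 2 calls among 16 markers, against 2.72% of all genes. Flt1, a receptor of vascular endothelial growth factor, was called at -0.60, with 10.6, 11.6 and 11.6 TPM in vehicle and 21.1, 16 and 18 TPM in weekly adipose tissue. Ptprb, the endothelial phosphatase VE-PTP, was called at -0.71. The 16 endothelial markers had a median of -0.40 (-0.01 in muscle, 0.36 in adipose tissue), which was -0.19 with TMM scaling, and Esam and Eng stood at -0.48 and -0.41 without being called. Tmem100, an endothelial membrane protein, was 7.69, 7.05 and 6.88 TPM in vehicle and 25.1, 18.4 and 20.1 TPM in weekly adipose tissue, against 17.8, 16.8 and 17.1 and 15.9, 21.6 and 20.2 TPM in muscle (-1.29 ± 0.19, limma adjusted p = 0.0292). The adipose groups did not overlap and the muscle groups did.

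Further genes with large differences, described with the genes above in the plot of the difference of each mouse, had diverse roles. Adamtsl5, a secreted matrix protein, was 8.52, 7.81 and 9.29 TPM in vehicle and 14, 17.6 and 19.5 TPM in weekly adipose tissue, against 26.3, 23.4 and 22.6 and 18.4, 19.4 and 18.8 TPM in muscle (-1.24 ± 0.14, limma adjusted p = 0.0201). Ano1, a calcium-activated chloride channel, rose in adipose tissue from 4.56, 5.98 and 5.01 to 13.3, 12.9 and 10.8 TPM (-1.21 ± 0.20). Dll1, a Notch ligand, went from 1.41, 2.56 and 3.27 to 5.76, 6.04 and 5.66 TPM (-1.17 ± 0.22). Atp1b1, the beta subunit of the sodium pump, went from 11.1, 9.999 and 10.1 to 23.4, 23 and 21 TPM (-1.17 ± 0.21). Tppp, a tubulin-binding protein, and Pan3, a subunit of a poly(A) nuclease, were called at -1.25 and -1.20.

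Mkl2, a coactivator of serum response factor, had effects of opposite sign in the tissues. It was 7.74, 7.27 and 6.80 TPM in muscle of vehicle mice and 5.66, 3.98 and 4.48 TPM in weekly mice, while in adipose tissue it was 4.66, 5.43 and 4.54 and 11.3, 6.16 and 7.30 TPM (-1.16 ± 0.14, limma adjusted p = 0.023). Neither tissue alone was called (limma adjusted p = 0.112 and 0.0717). Of the 14 named genes below 0, the other 13 rose in adipose tissue and none was called in muscle. With TMM scaling the 14 genes stood at -0.96 to -1.27 with limma adjusted p of 0.0621 to 0.127.

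**Figure D3:**
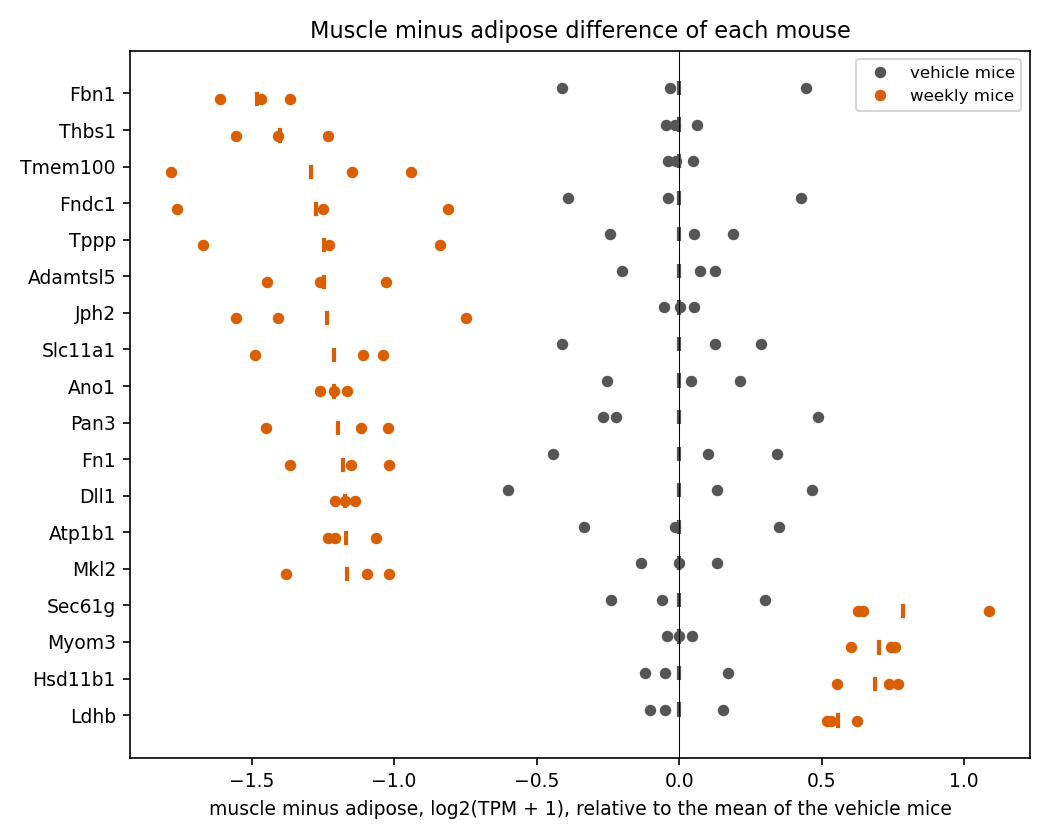
Muscle minus adipose difference of each mouse, log2(TPM + 1), relative to the mean of the vehicle mice, for the 14 genes named below 0 and 4 named above 0. Points are mice (vehicle grey, weekly orange) and short bars are means of 3 mice; the groups do not overlap because the genes were chosen for that.

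Of the genes called above 0, Hsd11b1, Ldhb and Sec61g fell in adipose tissue. Hsd11b1, the steroid-activating enzyme (chromosome 1, 193221634 to 193264075), was 90.2, 103 and 96.3 TPM in adipose tissue of vehicle mice and 67.6, 56.2 and 60.0 TPM in weekly mice. In muscle it was 14.2, 13.9 and 12.3 and 13.9, 13.2 and 14.4 TPM. The adipose groups did not overlap and the muscle groups did, and the tissue difference was 0.69 ± 0.15 (limma adjusted p = 0.0483). Ldhb, a lactate dehydrogenase subunit, went from 77.2, 80.0 and 83.5 to 51.6, 60.2 and 54.3 TPM in adipose tissue (0.56 ± 0.11, limma adjusted p = 0.0407).

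Sec61g, a subunit of the protein channel of the endoplasmic reticulum, was called at 0.79 and fell in adipose tissue by 0.69. Myom3, a protein of the muscle M-band, was called at 0.70. In vehicle mice its mean was 9.52 TPM in adipose tissue and 6.38 TPM in muscle. Its weekly effect was -0.47 in adipose tissue and 0.23 in muscle, neither called alone (limma adjusted p = 0.0592 and 0.267). Cyp26b1 and Krt10 were below the TPM minimum of the naming rule and were picked after their values were seen. Cyp26b1, which breaks down retinoic acid, was 0.835, 1.67 and 1.21 TPM in muscle of vehicle mice and 4.72, 4.21 and 4.96 TPM in weekly mice, and 0.395, 0.883 and 0.631 and 1.80, 1.24 and 1.24 TPM in adipose tissue. It rose in muscle by 1.34 (limma adjusted p = 0.0205), the tissue difference was 0.77 ± 0.12, and Krt10, a keratin, was called at 0.86.

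The promoters of Cd163, Fbn1 and Hsd11b1 are shown because these genes carry the macrophage, matrix and steroid-activation results. Each runs from 250 bases before to 50 after the RefSeq start (RefSeq, GRCm38.p6), 5′ to 3′ on the gene's strand. Capitals mark matches to the glucocorticoid half-site AGAACA on either strand. The intervals are chr6:124304401-124304700 on the plus strand for Cd163, chr2:125506389-125506688 on the minus strand for Fbn1 and chr1:193242311-193242610 on the minus strand for Hsd11b1.
Cd163: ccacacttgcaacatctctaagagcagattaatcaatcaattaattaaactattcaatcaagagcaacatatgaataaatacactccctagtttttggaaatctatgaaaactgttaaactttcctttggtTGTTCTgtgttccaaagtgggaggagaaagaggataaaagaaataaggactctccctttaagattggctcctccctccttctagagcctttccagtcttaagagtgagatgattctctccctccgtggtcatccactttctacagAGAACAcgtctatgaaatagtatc
Fbn1: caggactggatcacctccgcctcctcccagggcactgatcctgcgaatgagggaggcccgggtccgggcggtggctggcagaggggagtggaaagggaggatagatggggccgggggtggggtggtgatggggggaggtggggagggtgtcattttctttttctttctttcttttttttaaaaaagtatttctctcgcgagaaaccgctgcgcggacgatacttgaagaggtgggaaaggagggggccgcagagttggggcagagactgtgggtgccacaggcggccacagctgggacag
Hsd11b1: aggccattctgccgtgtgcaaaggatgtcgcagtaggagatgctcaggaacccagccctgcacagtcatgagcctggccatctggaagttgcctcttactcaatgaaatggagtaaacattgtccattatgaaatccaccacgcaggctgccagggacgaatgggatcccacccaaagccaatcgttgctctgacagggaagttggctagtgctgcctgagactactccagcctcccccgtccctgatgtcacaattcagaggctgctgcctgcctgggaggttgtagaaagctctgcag
The Cd163 window held 2 half-sites, and the letters were not in the other windows. The half-site was in 19% of all 32851 promoters, in 14.6% of 8701 tested genes with a promoter and in 27 of 236 genes called below 0 (11.4%). The full glucocorticoid response element was in 0.475% of all promoters and in 1 of the 236. Also searched on both strands were the AP-1 site TGANTCA, the TEAD site GGAATG, the E-box CACGTG, the TATA box TATAAA and a SMAD box repeat, none of which was in these 3 windows. These matches describe letters, and binding was not measured.

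Few known glucocorticoid targets were called between the tissues, as few of all genes were (2.78%). Of a panel of 22 genes of steroid response and metabolism, 20 were tested, Trim63 and Mafa being under the TPM minimum in adipose tissue, and 1 was called, Hsd11b1. Fkbp5, a receptor co-chaperone and classical target, was 7.10, 7.29 and 7.12 TPM in vehicle muscle and 10.4, 12.4 and 11.3 TPM in weekly muscle, and went from 11.4, 12.3 and 11.0 to 15.3, 15.8 and 17.3 TPM in adipose tissue. Weekly libraries were above vehicle ones in both tissues, and the tissue difference was 0.15 ± 0.13 (limma adjusted p = 0.487). Nfil3, a repressor of the clock, rose in both tissues, by 0.57 in muscle and 0.35 in adipose tissue (limma adjusted p = 0.0234 and 0.0276), with a tissue difference of 0.23 ± 0.09 that was not called.

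Klf9, a steroid-induced zinc finger factor, was at -0.45 (limma adjusted p = 0.0563), Cebpd at -0.40 and Socs2, an inhibitor of cytokine signalling, at -1.32 ± 0.35 (limma adjusted p = 0.0668). Klf15, a factor of amino acid and lipid use, was at 0.64 (limma adjusted p = 0.0772). Tsc22d3, Per1, Zbtb16, Pdk4, Nr3c1, Fbxo32, Nampt, Mt2 and Irs2 lay between -0.49 and 0.21 and were not called. The 27 glucocorticoid receptor targets had a median of -0.19, equal to that of all genes. Of them 0 were called (2.78% of all genes) and 8 were at an unadjusted p under 0.05 (28.1% of all genes). Mertk and Sgk1 were at -0.67 and -0.55. Of 16 genes of the receptor, its chaperones and steroid activation, Hsd11b1 was called, while Hsp90ab1 and Ncor1 were at -0.31 and -0.47 and were not called. Of 18 clock genes 0 were called and Cry2 and Rora were at -0.29 and -0.33.

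Some genes of insulin and growth signalling were called between the tissues. Irs1, the insulin receptor substrate, was 6.46, 7.19 and 6.61 TPM in muscle of vehicle mice and 4, 3.89 and 3.76 TPM in weekly mice. In adipose tissue it was 2.01, 3.93 and 3.00 and 4.44, 3.43 and 4.35 TPM. The groups were apart in muscle and overlapped in adipose tissue, neither was called alone (limma adjusted p = 0.17 and 0.199), and the tissue difference was -1.04 ± 0.23 (limma adjusted p = 0.0481). Tbc1d1, a regulator of glucose transporter traffic, was 20.2, 31.0 and 21.8 against 15.5, 14.1 and 15.1 TPM in muscle and was called at -1.01. Akt1 and Grb10 stood at -0.44 and -0.58 and were not called. Of the 20 insulin genes 2 were called below 0 (2.72% of all genes) and 18 were below 0 (77.9% of all genes). Their median was -0.28, and -0.09 with TMM scaling.

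Igfbp3 and Igfbp6, binding proteins of insulin-like growth factors, were called at -1.03 and -0.69. They were the 2 calls among 19 tested genes of the growth factor axis and myostatin, against 2.72% of all genes called below 0. Igfbp3 was 6.56, 7.35 and 5.73 TPM in vehicle and 12.9, 13 and 13.8 TPM in weekly adipose tissue, while Igf1r and Stat5b were at -0.75 and -0.47 without being called. Jun, an immediate early transcription factor, was called at -0.59, the 1 call among 17 tested immediate early genes, against 2.72% of all genes. Ier3, Klf4 and Fosl2 were at -0.59, -0.94 and -0.53 without a call. Irgm2, an interferon-induced GTPase, fell in muscle from 5.92, 6.29 and 5.72 to 3.61, 3.32 and 3.45 TPM and was called at -0.78 ± 0.15. It was the 1 call among 23 tested interferon response genes, against 2.72% of all genes. Of the 23, 11 were below 0, against 77.9% of all genes. Their median was 0.0008, and 0.16 with TMM scaling. Hdac4, a deacetylase of denervated muscle, Cblb, a ubiquitin ligase, and Slc7a8, an amino acid transporter, were called at -0.75, -0.57 and -0.52. Each was the 1 call of its list, against 2.72% of all genes. The lists held 5 tested denervation and regeneration genes, 24 muscle atrophy genes and 11 amino acid transporters.

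Oxidative metabolism lay above the median of all genes, which was not matched to these lists for transcript length. Of 49 oxidative phosphorylation genes 0 were called, 5 were below 0 and 18 had all weekly mice above all vehicle mice, against 3.01% of all genes. The median was 0.15 (-0.09 in muscle, -0.23 in adipose tissue), and 0.37 with TMM scaling. In adipose tissue alone 10 of the 49 fell, against 216 of all 11737 genes. Cox6b1, a subunit of cytochrome oxidase, was 1069, 934 and 1013 TPM in vehicle and 685, 835 and 825 TPM in weekly adipose tissue (tissue difference 0.28, not called), and Ndufs4, Ndufs8 and Cycs were at 0.28, 0.25 and 0.29. The 24 genes of fatty acid oxidation had a median of 0.09 and the 20 of the tricarboxylic acid cycle 0.03, with Acot2 and Etfb at 0.43 and 0.29, and 0 called.

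Storage and adipocyte genes gave few calls, as did all genes (2.78% called). Fads2, a fatty acid desaturase, was called at -0.73, and went from 8.08, 7.15 and 7.99 to 13.8, 11.2 and 11.6 TPM in adipose tissue. Acly and Fads1 rose in adipose tissue by 0.56 and 0.38 with tissue differences of -0.37 and -0.32, and Acacb was at -0.54, none called between tissues. Plin5, a lipid droplet protein of oxidative tissue, was at 0.49 (limma adjusted p = 0.055), and Plin2 and Pde3b were both at -0.35. Of 23 adipocyte markers 0 were called. Their median was -0.11 (-0.18 in muscle, -0.06 in adipose tissue), which turned to 0.10 with TMM scaling. Agt, Pnpla2, Lgals12 and Cfd were at -0.58, -0.15, -0.40 and -0.46, and Adipoq, Lep, Lpl and Slc2a4 at -0.31, -0.08, -0.07 and -0.04. Muscle libraries of both groups held Adipoq, the adipocyte hormone adiponectin, at 70.8 to 113 TPM.

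**Figure D4:**
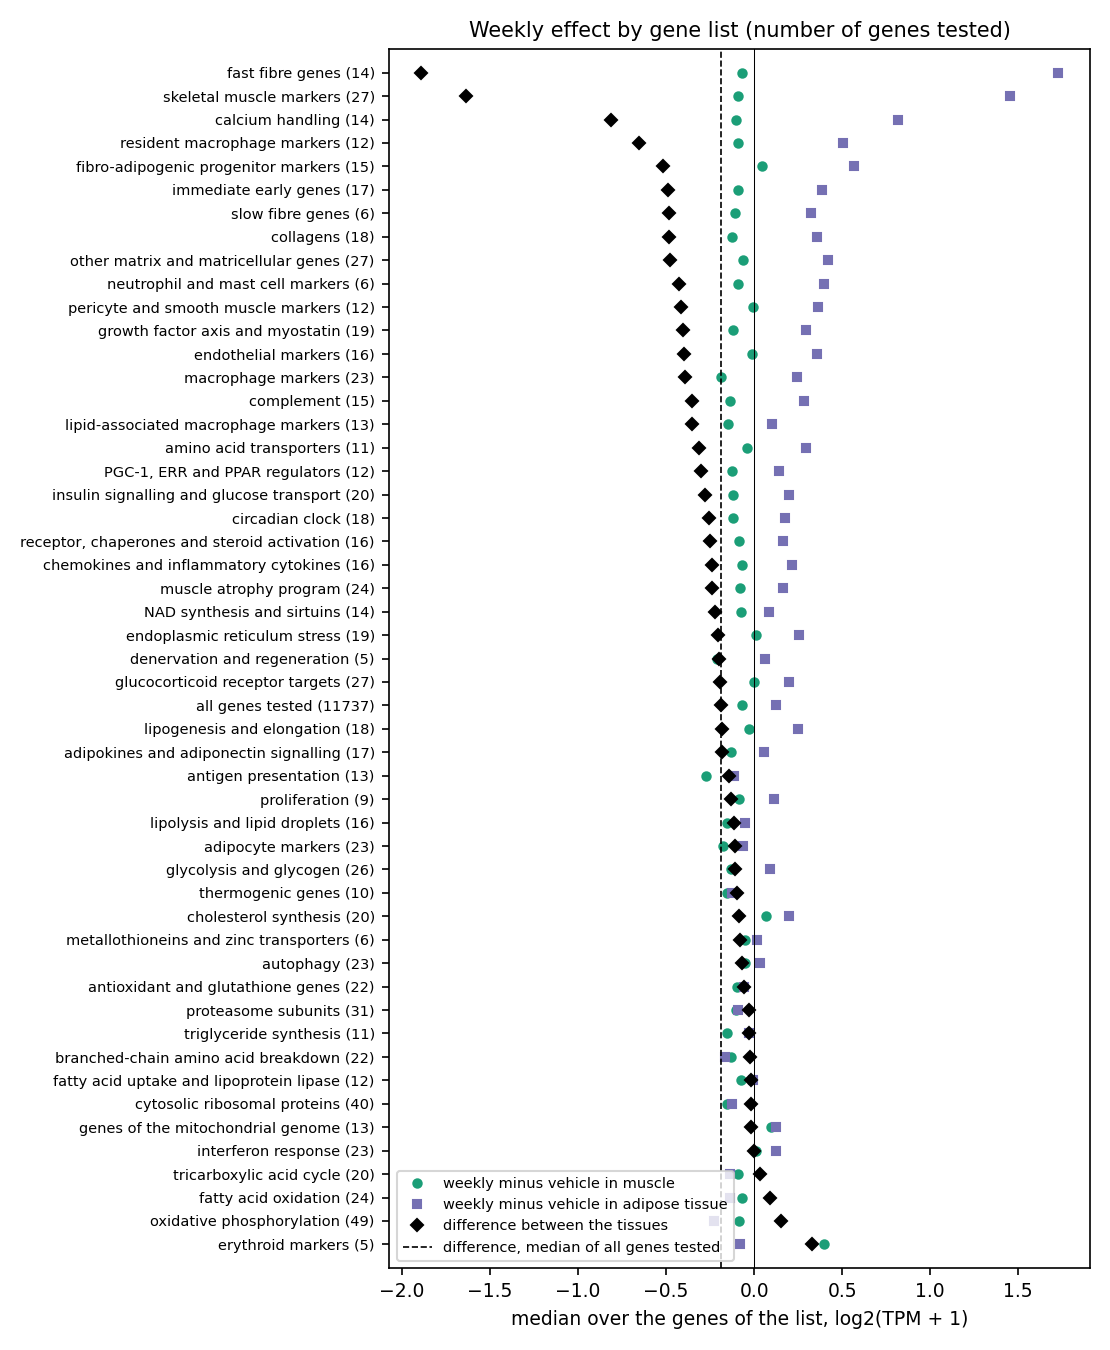
Median over the tested genes of each list with at least 5 tested genes of the weekly effect in muscle (circles), in adipose tissue (squares) and of the tissue difference (diamonds), log2(TPM + 1), 3 mice per group. The dashed line is the median of all genes tested, -0.19; it lies at 0.01 with TMM scaling, where medians near 0 change sign.

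Skeletal muscle genes had the list medians farthest below 0. The 27 skeletal muscle markers had a median of -1.64 (-0.09 in muscle, 1.45 in adipose tissue) and the 14 fast fibre genes -1.89, with 0 called in either. Ckm, the muscle creatine kinase, was 35.0, 13.2 and 16.5 TPM in vehicle adipose tissue and 13.8, 176 and 130 TPM in weekly adipose tissue, so weekly mouse 1 lay inside the vehicle range and the others far above it. Actn3, Pygm, Ldb3 and Myom1 stood at -1.94, -1.82, -1.45 and -0.65. Jph2, which tethers the muscle calcium store to the cell membrane, was called at -1.24 ± 0.26, the 1 call among 14 tested calcium handling genes, against 2.72% of all genes. It was 0.900, 0.769 and 0.816 TPM in vehicle and 1.98, 3.20 and 3.19 TPM in weekly adipose tissue, against 195 to 269 TPM in muscle, and Atp2a2, Stac3 and Trdn were at -0.50, -1.12 and -0.79. Phkg1 and Phka1 of glycogen breakdown were at -0.88 and -0.55. With a covariate for muscle transcripts in adipose libraries, limma called 1281 genes, 33 of the 37 named ones among them. Jph2 was at -0.94 in that fit (limma adjusted p = 0.0282). Beyond that fit, the part of muscle RNA in the Jph2 result was not tested.

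The tissue difference moved with transcript length. Its median was 0.01 for genes with transcripts under 1000 bases, -0.10 for 1000 to 2000, -0.19 for 2000 to 3000, -0.26 for 3000 to 4500 and -0.34 above 4500 bases. The share of genes called below 0 went from 0.398% to 6.19% over the same bins. In adipose tissue the median weekly effect went from -0.11 to 0.28 across them, and in muscle from -0.09 to -0.06. Genes called below 0 had a median length of 3394 bases, against 2330 for all genes and 1231 for those called above 0. When each mouse was centred within these bins, limma called 1 gene above 0 and 0 below 0, with 1782 at an unadjusted p under 0.05. This centring was fitted for each gene, and it also moved the median tissue difference of all genes from -0.19 to 0.03. The part of transcript length alone in the result of any single gene or gene list was not tested.

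**Figure D5:**
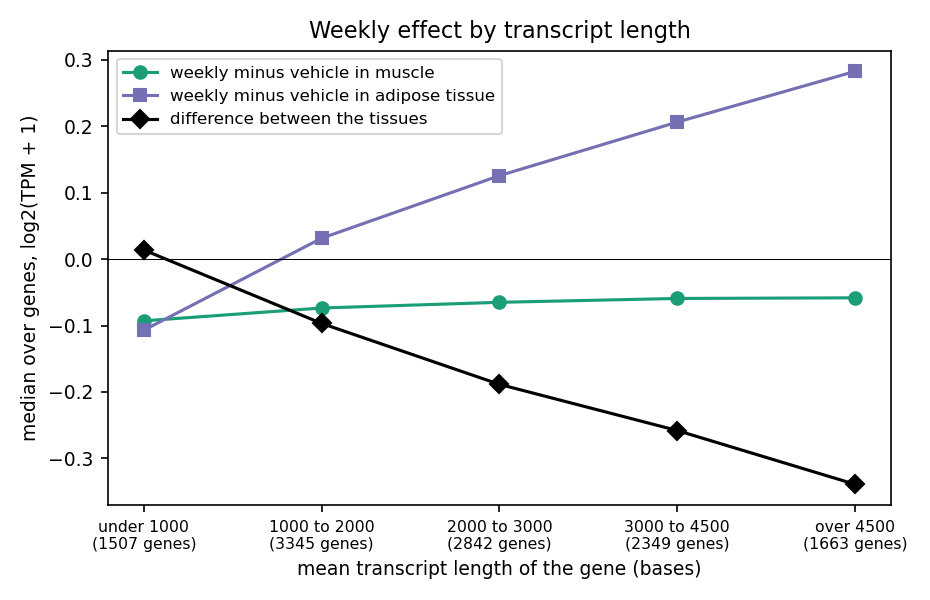
Median over genes of the weekly effect in muscle (circles), adipose tissue (squares) and of the tissue difference (diamonds), log2(TPM + 1), by mean transcript length in bases. The adipose median rises from -0.11 in the shortest bin to 0.28 in the longest while the muscle median stays between -0.09 and -0.06.

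Fewer genes were called for the daily regimen. Against vehicle, 6 of 11737 genes were called for the daily regimen (0.0511%), 4 above 0 (0.0341%) and 2 below (0.017%). The 319 genes called below 0 for weekly had a daily median of -0.30, against -0.09 over all genes. Of them 292 were below 0 for daily and 1 was called, Adamtsl5 (-1.07, limma adjusted p = 0.0441). Both regimens were compared with the same vehicle mice, whose values had helped to choose the 319, so daily values below 0 are partly built in. Directly between weekly and daily, 85 genes were called (0.724%), 30 of them among the 319, which had been chosen with the same weekly mice. They included Thbs1 (-1.10 ± 0.16, limma adjusted p = 0.0329), Fn1 (-1.29 ± 0.21, limma adjusted p = 0.0427), Ano1 (-1.19), Itgam (-1.15), and, above 0, Cyp26b1 (0.91 ± 0.12, limma adjusted p = 0.0204). Col3a1, Lyz2, Grb10 and Plin5, not called for weekly against vehicle, were called between the regimens at -1.27, -1.39, -0.77 and 0.86.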

How the data were processed

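Stranded mRNA libraries were made from total RNA purified with Trizol and RNeasy columns, per the labels. The deposited values are TPM per transcript, scaled by the authors to a fixed sum per library. Trimmomatic, HISAT2, kallisto and mm10 are named in the submitters' processing notes, and versions, roles and annotation are not given in the sources used here. Here TPM was summed per gene symbol over 105129 transcripts to 33641 genes, and log2(TPM + 1) was used.

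The muscle-minus-adipose difference of each mouse was fitted with limma 3.58.1 (eBayes with trend) in R 4.3.3, over all 9 mice with 6 residual degrees of freedom. Daily mice served the estimate of the spread and the comparisons with the daily regimen. The Benjamini-Hochberg adjustment ran over 11737 genes. The tissues of a mouse were paired as the labels state, and their residuals correlated at a median of 0.0464.

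Named genes were the called genes of largest size in each direction (up to 14) whose groups did not overlap, with a mean of at least 5 TPM in a tissue. A panel of 22 genes, and up to 4 members with the smallest p of each described list with all called members where there were 4 or fewer, were added. Ckm, Cyp26b1 and Krt10 were named after their values were seen. Predicted genes were not named. A gene that the rule selects is not reported here. Members, 54 lists and the rule were chosen with earlier results of these data known. Positions and transcript lengths are from GENCODE (GRCm38), matched for 103635 transcripts, and promoters from RefSeq.

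Tested on simulated data with 200 changed genes among 11737, the fit found 0% of changes of 0.5 (log2), 73.5% of changes of 1 and 96% of changes of 2. It called 0, 6 and 9 unchanged genes there. The simulated noise was independent between genes, with changes in both directions and no shift shared by all genes. The real data had such a shift, so these shares need not hold for them. Alternatives were other scalings, pseudocounts, filters and fits, and leaving out mice. Figures were drawn with matplotlib 3.10.9.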

Additional observations from a re-analysis of the deposited data

Results flagged for a closer look

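The weekly effect differed between muscle and adipose tissue for 326 genes by limma's test of the difference itself. Each value below is such a difference, muscle minus adipose, in log2(TPM + 1), with 3 mice per group.

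Matrix and cell-surface genes below 0 were Fbn1 (-1.48), Thbs1 (-1.40), Fndc1 (-1.27), Adamtsl5 (-1.24), Fn1 (-1.18) and Col12a1 (-0.72). Macrophage and vascular genes were Tmem100 (-1.29), Slc11a1 (-1.21), Cd163 (-1.12), Lyve1 (-1.11), Itgam (-0.94), Ptprb (-0.71), Flt1 (-0.60) and Gas6 (-0.41). Signalling and transcription genes were Dll1 (-1.17), Mkl2 (-1.16), Irs1 (-1.04), Igfbp3 (-1.03), Tbc1d1 (-1.01), Irgm2 (-0.78), Hdac4 (-0.75), Igfbp6 (-0.69), Jun (-0.59) and Cblb (-0.57).

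Other genes below 0 were Tppp (-1.25), Jph2 (-1.24), Ano1 (-1.21), Pan3 (-1.20), Atp1b1 (-1.17), Fads2 (-0.73) and Slc7a8 (-0.52). Genes above 0 were Krt10 (0.86), Sec61g (0.79), Cyp26b1 (0.77), Myom3 (0.70), Hsd11b1 (0.69) and Ldhb (0.56). Groups of 3 mice were not searched for single outlying mice.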

How the results depend on the processing

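All 37 called genes named in the text kept their sign in each of the 25 settings in which they could be fitted, and were called in 6 to 12 of them. Settings that leave out mice could not turn these signs, since the groups of the called genes did not overlap. The count of called genes, 326, was not steady. It was 0 with TMM scaling and 0 with TMM scaling and without weekly mouse 2. It was 1 with quantile normalization, 1 with each mouse centred on its median and 1 with centring within bins of transcript length. With quantile normalization and with either centring the called gene was above 0, and 0 genes below 0 were called. The count was 177 with a pseudocount of 0.1, 657 with a pseudocount of 5 and 27 with no filter. It was 0 with only vehicle and weekly mice, 510 with the tissues of a mouse unpaired (no replicate block), 865 with the mouse as a random effect and 2505 with array weights. It was 1 without the third mouse of every group, 10 without weekly mice 2 and 3, and 1281 with a covariate for muscle transcripts. Leaving out 1 mouse at a time gave 0 to 191. The limma counts of 0 stood beside 2305 (TMM), 2271 (TMM without weekly mouse 2) and 3128 (vehicle and weekly mice alone) genes at an unadjusted p under 0.05. The cause of these changes was not tested, except that fits with fewer mice have fewer degrees of freedom.

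Whether replicate numbers pair mice across regimens could not be decided. Residuals of weekly and vehicle mice of the same number correlated at 0.0311 to 0.0712. The tissues of 1 mouse, which are paired, had a median of only 0.0464. With a replicate block, 0 genes were called for the tissue difference (3097 at an unadjusted p under 0.05) and 0 in muscle (1815). In muscle the count of 6 became 0 with no filter (2483 at an unadjusted p under 0.05), 3 with a filter at 5 TPM and 0 to 1 without 1 mouse. In adipose tissue the count of 1052 became 306 with no filter and 64 to 1240 without 1 mouse, the lowest being without vehicle mouse 3. With TMM scaling 1116 were called there, 458 higher and 658 lower, against 809 and 243.

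Values of genes that were not called turned sign as follows. With TMM scaling Tsc22d3 was 0.12, Nr3c1 0.026, Lep 0.14, Lpl 0.15, Slc2a4 0.17, Nampt 0.096 and Pnpla2 0.064. With TMM and without weekly mouse 2, Tsc22d3 was 0.11, Pdk4 0.061, Nr3c1 0.048, Lep 0.10, Lpl 0.13, Slc2a4 0.25, Nampt 0.14, Pnpla2 0.051 and Dnajc3 0.00094. With quantile normalization Tsc22d3 was 0.0092, Slc2a4 0.078, Nampt 0.087 and Irs2 0.079. With each mouse centred on its median Tsc22d3 was 0.10, Nr3c1 0.022, Lep 0.13, Lpl 0.14, Slc2a4 0.16, Nampt 0.090, Irs2 0.012 and Pnpla2 0.052. With centring within length bins Tsc22d3 was 0.027, Nr3c1 0.18, Lep 0.18, Lpl 0.19, Slc2a4 0.18, Nampt 0.15, Irs2 0.17, Rora 0.037, Sel1l 0.0017, Pde3b 0.021 and Dnajc3 0.12. With the covariate Fkbp5 was -0.028, Lep 0.11, Lpl 0.028, Slc2a4 0.014 and Ckm 0.35. Without 1 mouse at a time Lep was -0.23 to 0.087, Lpl -0.14 to 0.010, Pdk4 -0.58 to 0.0028 and Slc2a4 -0.089 to 0.0073. Without weekly mice 2 and 3 Slc2a4 was 0.052 and Ckm 0.35.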

Other observations

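Of 19 tested genes of endoplasmic reticulum stress and protein folding, 7 rose and 1 fell in adipose tissue, against 715 and 216 of all 11737 genes. Between the tissues 0 were called, against 2.78% of all genes. A tissue difference below 0 was found for 17 of the 19, against 77.9% of all genes, and 13 had all 3 weekly mice below all 3 vehicle mice, against 31.5%. The median was -0.21, beside -0.19 over all genes, and 0.01 with TMM scaling. Canx, the chaperone calnexin, was 91.3, 108 and 109 TPM in vehicle and 157, 129 and 130 TPM in weekly adipose tissue, with a tissue difference of -0.48 (limma adjusted p = 0.0665). Sel1l, of the degradation machinery, was at -0.36, Manf at -0.27 and Dnajc3 at -0.24.

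Complement genes lay below 0 in 15 of 15 tested cases, against 77.9% of all genes, with a median of -0.35 (-0.15 with TMM scaling) and 0 called between the tissues. In adipose tissue 6 of them rose, against 715 of all 11737 genes. The 40 cytosolic ribosomal protein genes had a median of -0.02 and the 31 proteasome subunits -0.03, which turned to 0.20 and 0.18 with TMM scaling, with 0 called in either.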
